A study of Mus musculus with 3 samples.

Results

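The genes described here are the immediate-early transcription factor genes of the AP-1 and Egr families, which are Fos, Fosb, Fosl1, Fosl2, Jun, Junb, Jund, Atf3, Egr1 and Egr2. They were chosen by name, and are 10 of the 21887 protein-coding genes that RefSeq lists on GRCm38.p6 (mm10). Each gene was given a window from 10 kb before to 10 kb after its annotated ends, and every EZH2 interval and summit inside it was taken. The data came from bone marrow-derived macrophages of C57BL/6 mice, grown from marrow of adult animals for 5 days with M-CSF-conditioned medium. Cells received nothing (NT) or 2 h of LPS, the bacterial lipopolysaccharide that Toll-like receptor 4 senses. EZH2 was mapped with an antibody and sequencing of the precipitated DNA (ChIP-seq) in 1 library per condition. The series also has 1 input DNA library, not used here. No genotype other than the strain is given, and the number of animals behind each library is not stated in the labels.

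AP-1 is a dimeric factor made of basic leucine zipper proteins. Fos proteins pair with Jun proteins, Jun proteins also pair with each other, and the related Atf3 joins the same network. Egr proteins are zinc finger factors that bind GC-rich DNA. In macrophages, Toll-like receptors act through MAP kinases to switch most of these genes on within minutes, before any new protein has to be made. EZH2 is the methyltransferase of polycomb repressive complex 2, which places the repressive methyl marks on lysine 27 of histone H3. Occupancy by EZH2 is not a measure of transcription, and no RNA was measured here.

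An interval is a stretch of enriched signal as the authors listed it for a library. The summit value is the whole number listed at its highest point, in a unit that the sources used here do not state. The NT list held 9643 intervals with values from 11 to 253, and the stimulated list held 4651 with values from 7 to 100. The stimulated track is named TLR and was taken as the LPS sample, the only stimulated EZH2 sample in the labels. With 1 library per condition and no stated depth or scaling, no difference below has a replicate check or a test, and a lower LPS value cannot be read as less EZH2. As a reference, the median LPS to NT ratio of summit values was 0.5 over the 4027 regions with an interval in both libraries. As occupancy does not show which cells were present, the cell type label could not be checked. An NT interval lay at 2 of 6 macrophage marker genes and an LPS interval at 1, and none of 8 markers of other marrow and stromal cells had either. Over all protein-coding genes the shares were 46% in NT and 21.2% in LPS.

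All 10 genes had an NT interval in their window, against 46% of all protein-coding genes. An LPS interval was found at 8 of the 10, against 21.2% of all genes, and these 8 were the genes with an interval in both libraries (20.6% of all genes). Fosl2 and Egr1 had an NT interval alone, as did 25.4% of all genes. None of the 10 had an LPS interval alone, which is rare in general (0.635% of all genes). The median of the highest NT value per gene was 35 for these 10 genes and 29 for all genes with an NT interval. In LPS the order was the other way, with medians of 14 for the 8 genes and 18 for all genes with an LPS interval.

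**Figure D1:**
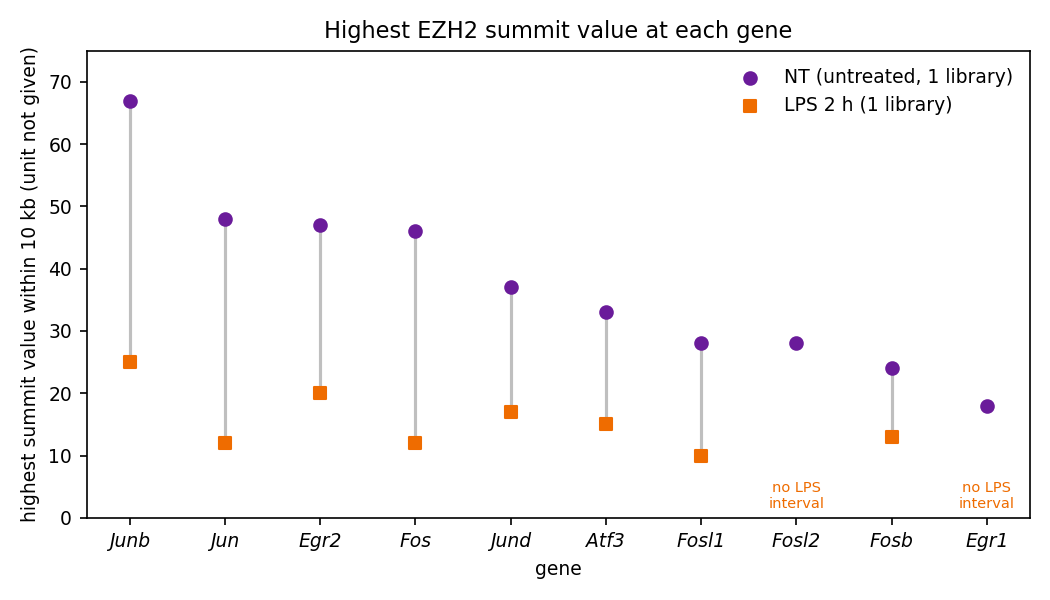
Highest summit value within 10 kb of each gene in the NT library (circles) and the LPS library (squares), with genes in order of the NT value; the unit of the values is not given. NT values run from 18 at Egr1 to 67 at Junb and LPS values from 10 at Fosl1 to 25 at Junb, and at Fosb the 2 symbols belong to different intervals.

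The promoter sequences of 5 of the genes are shown so that the start regions described below can be read. They are those of Fos and Jun, of Fosb and Fosl2, and of Egr2, whose window holds letters that match a CArG box. No relation between a motif and an interval or ratio was tested. Each runs 5′ to 3′ on the strand of the gene, from 250 bases before to 50 bases after a listed transcription start, from RefSeq on GRCm38.p6. Capitals mark matches on either strand to an AP-1 site (TGANTCA), a CRE-type site (TGACNTCA), an EGR site (GCGNGGGCG), a GC box (GGGCGG) and the CArG box, the element known for serum response factor.
Fos, chr12:85473640-85473939, plus strand: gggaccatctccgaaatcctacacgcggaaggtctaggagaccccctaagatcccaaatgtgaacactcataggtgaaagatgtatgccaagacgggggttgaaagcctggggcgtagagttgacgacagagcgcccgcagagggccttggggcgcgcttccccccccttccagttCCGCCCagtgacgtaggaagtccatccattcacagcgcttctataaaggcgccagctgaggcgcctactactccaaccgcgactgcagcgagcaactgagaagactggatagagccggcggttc
Jun, chr4:95052173-95052472, minus strand: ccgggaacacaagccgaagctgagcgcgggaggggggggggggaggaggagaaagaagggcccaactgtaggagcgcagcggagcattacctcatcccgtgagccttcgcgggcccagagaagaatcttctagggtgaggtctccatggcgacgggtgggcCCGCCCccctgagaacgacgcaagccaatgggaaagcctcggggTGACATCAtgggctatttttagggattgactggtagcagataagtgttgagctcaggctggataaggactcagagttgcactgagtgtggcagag
Fosb, chr7:19309996-19310295, minus strand: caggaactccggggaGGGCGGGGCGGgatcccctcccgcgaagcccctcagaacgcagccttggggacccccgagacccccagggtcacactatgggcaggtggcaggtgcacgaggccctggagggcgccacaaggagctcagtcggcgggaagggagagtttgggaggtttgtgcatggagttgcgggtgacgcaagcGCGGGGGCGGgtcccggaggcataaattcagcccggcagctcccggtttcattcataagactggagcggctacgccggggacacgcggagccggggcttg
Fosl2, chr5:32136222-32136521, plus strand: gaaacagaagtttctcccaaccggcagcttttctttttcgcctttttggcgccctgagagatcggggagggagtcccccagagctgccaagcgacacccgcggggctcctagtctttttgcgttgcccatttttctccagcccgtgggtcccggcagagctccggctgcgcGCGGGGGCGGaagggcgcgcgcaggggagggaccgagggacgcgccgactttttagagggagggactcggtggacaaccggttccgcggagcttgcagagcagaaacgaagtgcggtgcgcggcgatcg
Egr2, chr10:67537680-67537979, plus strand: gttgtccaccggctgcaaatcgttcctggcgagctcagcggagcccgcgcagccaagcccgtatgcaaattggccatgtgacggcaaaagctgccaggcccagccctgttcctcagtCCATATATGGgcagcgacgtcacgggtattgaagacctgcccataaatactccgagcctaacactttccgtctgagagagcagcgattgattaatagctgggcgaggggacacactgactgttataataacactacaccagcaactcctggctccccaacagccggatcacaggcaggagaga

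In these windows Jun held a CRE-type site, TGACATCA, from 45 to 38 bases before the start. Fosb held the EGR site GCGGGGGCG from 50 to 42 bases before its start, and Fosl2 held the same letters from 79 to 71 bases before its start. In both, the EGR site overlaps a GC box, and 2 further GC boxes of Fosb overlap each other. Egr2 held the CArG box CCATATATGG from 133 to 124 bases before the start shown, and another, CCTTTTTTGG, from 72 to 63 bases before its listed start at 67537566. Over all 21263 listed promoter windows of protein-coding genes, 8.75% held a CRE-type site, 7.52% an EGR site, 1.52% a CArG box, 46.2% a GC box and 6.99% an AP-1 site. Of the 8 genes with a listed window (Fosl1 and Egr1 are named only), 6 held a GC box, 2 an EGR site, 1 a CRE-type site, 1 a CArG box and 0 an AP-1 site. A match is only a run of letters and does not show that a factor binds there. Letters outside these windows were not searched, so a missing match does not show that a gene lacks the element.

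Fos, the founding partner of the Jun proteins in AP-1, lies on chromosome 12 from 85473890 to 85477274. It had 1 NT interval, from 85473348 to 85475430 with a summit value of 46, and 1 LPS interval, from 85473380 to 85474556 with 12. Both covered the transcription start, and both summits lay just downstream of it, 63 bp in NT and 47 bp in LPS. The upstream edges lay close together, 542 and 510 bp before the start, while the downstream edge lay 1540 bp into the gene in NT and 666 bp in LPS. The ratio of LPS to NT was 0.261. Among 610 shared regions of like NT value (no more than 5 from the 46 at Fos), 31 (5.08%) had a ratio as low or lower, and their median was 0.468.

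Fosb encodes a close relative of Fos, and its gene on chromosome 7 runs from 19302696 to 19310118 on the minus strand. Over the start lay an NT interval with a value of 24, reaching from 743 bp upstream to 1883 bp downstream, and no LPS interval met it. Further into the gene an NT interval with a value of 20, from 3681 to 6130 bp downstream of the start, met the only LPS interval of the window, which had 13 and lay 4498 to 6173 bp downstream. The edge of that LPS interval was 2615 bp from the NT interval over the start. The ratio inside the gene, 0.65, was the highest among the 8 genes listed in both libraries and lay above the median of 0.579 for like NT values. Of 698 NT intervals like that over the start in value (within 5) and width (within 1.5 times), 60.5% met an LPS interval. The remaining NT interval of the window, also with 20, began 9577 bp outside the gene and had no LPS partner.

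Fosl1 and Fosl2 encode the Fos-related proteins that lack the strong activation domains of Fos. At Fosl1, on chromosome 19 from 5447698 to 5455938, the interval over the lower-coordinate end had 28 in NT and 10 in LPS, a ratio of 0.357. The LPS interval there was 1042 bp wide against 2096 bp in NT, and the summits lay 768 bp apart. Among 1255 shared regions of like NT value, 8.92% had a ratio as low or lower. Further NT intervals in the Fosl1 window, with 25 and 22, met the neighbouring genes Ccdc85b and Fibp and no LPS interval, so they cannot be assigned to Fosl1 alone. At Fosl2, on chromosome 5 from 32136472 to 32157840, an NT interval with 28 covered the start, from 1356 bp upstream to 690 bp downstream, and another with 21 lay upstream of it. No LPS interval met either, and the nearest was 472778 bp away. In the series 55.2% of 1419 NT intervals of like value and width as that over the Fosl2 start met an LPS interval.

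Jun, which encodes the AP-1 subunit that gave the family its name, is transcribed from the minus strand of chromosome 4, from 95049036 to 95052222. Its NT interval, from 95050032 to 95053484, had a value of 48 and its LPS interval, from 95050467 to 95052665, had 12. Both covered the start and reached into the gene, with the summit 1501 bp downstream of the start in NT and 957 bp in LPS. The ratio of 0.25 was the lowest among the 8 genes listed in both libraries. Of 554 shared regions of like NT value, 24 (4.33%) had a ratio as low or lower, against a median of 0.465. The non-coding gene Junos lies under the same intervals, and ChIP-seq signal does not tell the strands apart.

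Fos and Jun had near-equal values in each library, 46 and 48 in NT and 12 and 12 in LPS. Ratios of 0.3 or less were found in 152 of the 4027 shared regions (3.77%). As listed LPS values start at 7, regions of low NT value could not have such a ratio but are counted in this share. The median ratio of all 9 shared regions at the 10 genes was 0.426, and 8 of the 9 lay below the overall median of 0.5. Where these regions had NT values from 33 to 67, the medians for like NT values were also below 0.5, from 0.465 to 0.486. The share of like regions with a ratio as low or lower was 39.7% to 48.6% at Jund, Atf3 and both Egr2 regions. This share was smaller at Fos, Jun, Fosl1 and Junb, and it was 70.3% at Fosb. The count of 8 does not by itself set these genes apart. The pair of Fos and Jun was singled out after the values were seen. Whether the ratio at Fos or Jun would recur in another library was not tested.

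**Figure D2:**
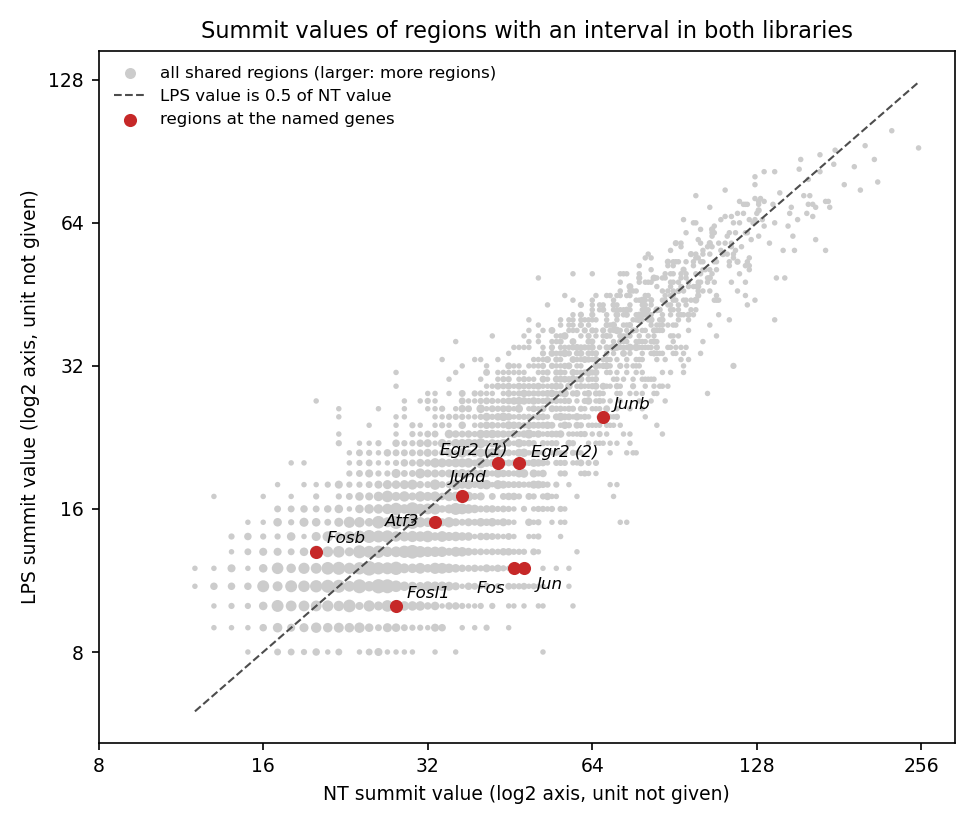
Summit value in LPS against summit value in NT, both on log2 axes and in a unit that is not given, for the 4027 regions with an interval in both libraries (grey) and the 9 at the named genes (red); the dashed line is a ratio of 0.5. Among the 9 red points, Fos (46 and 12) and Jun (48 and 12) lie farthest below the line and Fosb (20 and 13) lies above it, while some grey regions lie farther below.

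Junb, an AP-1 subunit that can restrain Jun, had the highest values of the 10 genes. The gene, on the minus strand of chromosome 8 from 84976909 to 84978748, lay wholly under an NT interval of 3521 bp with a value of 67 and an LPS interval of 3165 bp with 25. Only 5.98% of all NT intervals had a value of 67 or more. The ratio was 0.373, and 38 of 237 shared regions of like NT value had a ratio as low or lower. The summit lay at the start in NT, 155 bp downstream, and at the opposite end of the gene in LPS, 2331 bp downstream of the start and 492 bp past the gene's end. A distance between summits as long as this 2176 bp was found in 8 of 1389 shared regions of like width (0.576%). Another 3 NT intervals in the Junb window, with 27, 20 and 32, met no LPS interval, and the first of them lay over the neighbouring genes Prdx2 and Rnaseh2a.

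Jund, the AP-1 subunit that is present at steadier levels than its relatives, lies on the plus strand of chromosome 8 from 70697739 to 70700616. It had 37 in NT and 17 in LPS in the same place, with the summits 1494 and 1478 bp downstream of the listed start. These intervals began 393 and 487 bp downstream of that start, so Jund was the only gene of the 8 with a listed start whose starts were all outside its NT intervals. Its ratio of 0.459 was close to the median of 0.469 for like NT values.

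Atf3 encodes a basic leucine zipper protein that is known to dampen the macrophage response to Toll-like receptor ligands. On chromosome 1, from 191170296 to 191183333 on the minus strand, it had 33 in NT over 3763 bp and 15 in LPS over 3457 bp. Nearly the same stretch was thus listed in both libraries, and the ratio of 0.455 was near the median of 0.472 for like NT values. Summits differed in position. In NT the summit lay 1692 bp upstream of the start and in LPS 580 bp downstream, a distance of 2272 bp that 7 of 1255 shared regions of like width (0.558%) reached. At Fos and Jund, by contrast, the summits of both libraries lay 16 bp apart, and the median over all shared regions was 123 bp.

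The Egr genes differed from each other. Egr1, on chromosome 18 from 34861207 to 34864956, is a classic first responder to growth factors and stress. It had the lowest NT value of the 10 genes, 18, in an interval of 1032 bp over its lower-coordinate end. No LPS interval was in its window, and the nearest was 100482 bp away. Such weak and narrow NT intervals seldom had an LPS partner, 15.9% of 2800 of like value and width.

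Egr2, which also directs hindbrain patterning and myelination, carried intervals in both libraries. It lies on chromosome 10 from 67534469 to 67542188, on the plus strand. The interval over its first listed start had 43 in NT and 20 in LPS. The next interval along the gene, which in NT covered the last 3 of its 5 listed starts, had 47 in NT and 20 in LPS. The LPS interval there ran from 67538032 to 67539643 and met none of the listed promoter windows. Ratios of 0.465 and 0.426 were below the medians of 0.474 and 0.468 for like NT values by little, and 47.7% and 39.7% of such regions were as low or lower. Both LPS intervals were narrow, 0.438 and 0.508 of the NT width, where 5.85% and 9.44% of shared regions of like NT width had a ratio of widths as low or lower. The remaining NT interval of the window, with 33, lay over the neighbouring gene Ado and had no LPS partner.

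**Figure D3:**
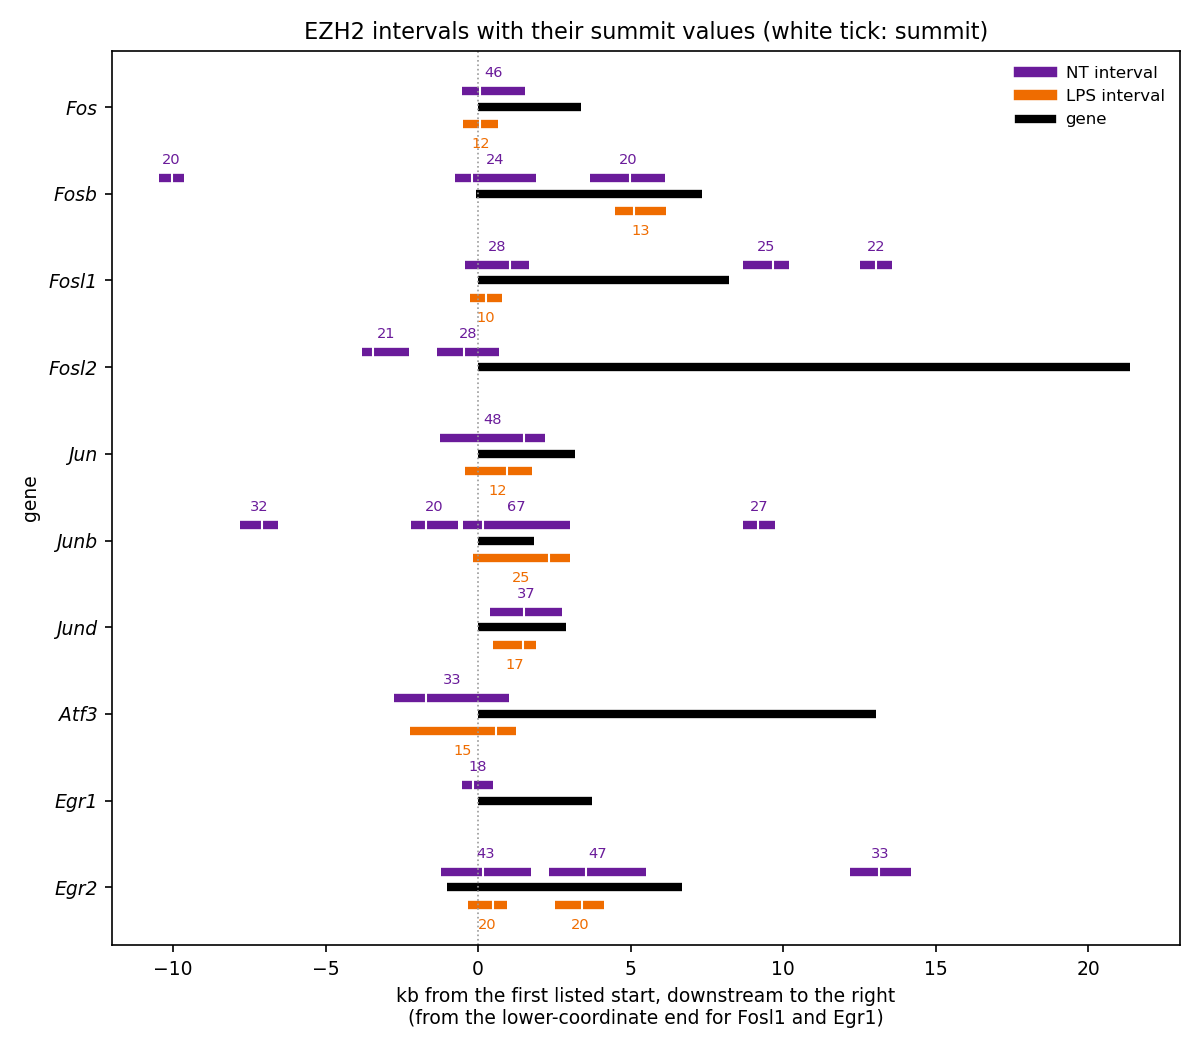
Intervals of the NT library (above each gene) and the LPS library (below), in kb from the first listed transcription start, with each summit value printed beside its interval and a white tick at the summit; Fosl1 and Egr1 are drawn from the lower-coordinate end. All 9 LPS intervals meet the gene itself, and the 8 NT intervals that lie outside the genes have no LPS interval below them. The share of the whole LPS list that meets a gene is not given here.

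Over the 10 genes, the intervals were grouped by whether they touched the gene. The windows held 20 NT and 9 LPS intervals. All 9 LPS intervals, with values from 10 to 25 and a median of 15, met an NT interval. A looser count by gene, with no overlap required, is also high in general. By it, 4511 of the 4650 protein-coding genes with an LPS interval in their window also had an NT interval there. The share of all LPS intervals that meet an NT interval is not given here. The other way round, 9 of the 20 NT intervals met an LPS interval, close to the 43.2% of all NT intervals that did. Of the 12 NT intervals that touched the gene itself, with values from 18 to 67, 9 had an LPS partner, where 42.8% of all 7984 NT intervals in that range did. The share of NT intervals of like value and width with a partner ran from 15.9% to 100% for these 12 and summed to 8.91, close to the 9 seen. The other 8 lay outside the gene, with values from 20 to 33, and 0 of them had a partner, while 31.9% of all 4950 NT intervals with values in that range did. For these 8 the shares at like value and width summed to 2.42. This grouping was made after the values were seen, and the sums only describe these intervals and are no test of place. The intervals outside the genes were also weaker (median 23.5 against 35) and narrower (at most 2025 bp against 3763 bp), and the part of place in this difference was not tested.

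Where LPS intervals were present, each was shorter than its NT partner. The median ratio of LPS to NT width was 0.603 at these genes and 0.848 over all shared regions. The ratio was 0.565 at Fos, 0.637 at Jun and 0.603 at Jund, and it was 0.899 at Junb and 0.919 at Atf3. Put as shares of the gene, NT intervals covered 45.5% of Fos and LPS intervals 19.7%. For Fosb these shares were 59.4% and 22.6%, for Jun 68.7% and 55.1%, for Jund 81.4% and 49.1%, and for Egr2 76.8% and 37.6%. Fosl1 had 20.1% and 9.45%. Junb was wholly covered in both libraries. Atf3 went the other way in this share alone, with 7.82% of the gene covered in NT and 9.51% in LPS. Width and summit value come from the same signal, and a shorter interval and a lower signal cannot be told apart.

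Promoters of these genes are mostly rich in CpG, the dinucleotide that marks the promoters polycomb complexes are known to occupy. Here CpG content is the ratio of observed to expected CpG in the 300 bases of a listed window. An NT interval met the promoter window of 7 of the 8 genes with a listed start, against 33.8% of 17492 protein-coding genes, and an LPS interval that of 5, against 12.7%. The ratio was 0.184 at Jund, the gene with no window met, and from 0.594 at Jun to 1.03 at Fosl2 elsewhere. The Egr2 window of the start at 67537566 was met in neither library either, and its ratio was 0.997. The ratio was 0.775 at Fos, 0.735 at Fosb, 0.666 at Junb and 0.867 at Atf3. The median was 0.567 over all windows and 0.807 over windows met by an NT interval. Over all windows the share met by an NT interval went from 1.06% below a ratio of 0.2 to 52.1% from 0.6 to 0.8 and 59.0% from 0.8 to 1. LPS intervals met 0.639%, 20.1% and 19.7% of the same windows. NT intervals thus met most windows of any gene from 0.6 up, and whether the 10 genes differ from other CpG-rich genes was not tested.

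**Figure D4:**
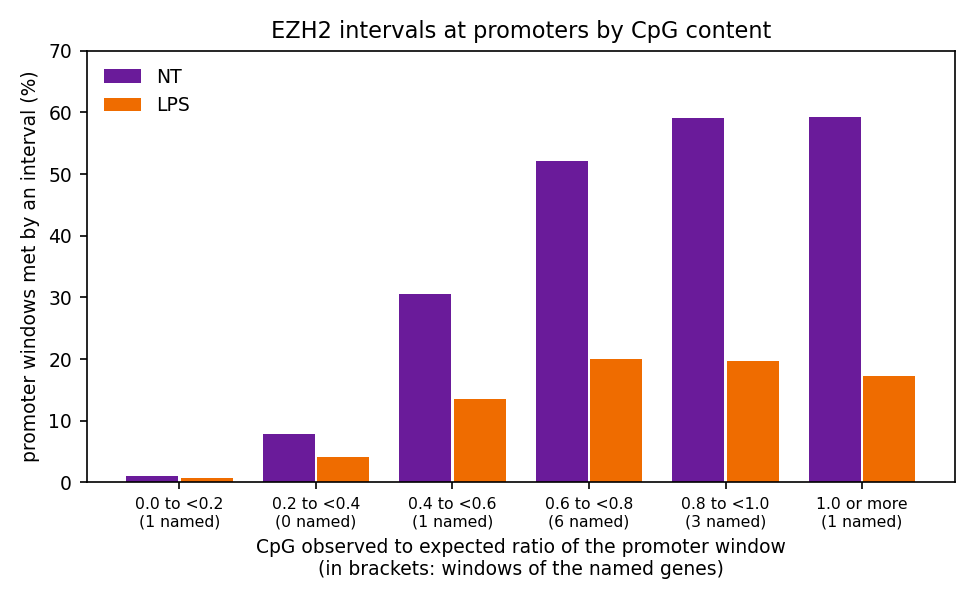
Share of promoter windows (300 bases, all protein-coding genes) met by an NT or LPS interval, by the ratio of observed to expected CpG, with the number of windows of the named genes in each class. NT shares go from 1.06% in the lowest class to 59.2% in the highest, and 10 of the 12 windows of the named genes lie at 0.6 or above. Egr2 alone has 5 of the 12 windows, some of them nearly the same stretch, so windows are not separate genes.

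Other genes of the same circuit were taken from 5 lists with 75 genes in all. Of these, 56 had an NT interval within 10 kb (74.7%), 31 had an LPS interval (41.3%), and 0 had an LPS interval alone. The other immediate-early genes came closest to the AP-1 and Egr genes, with 24 of 27 in NT and 18 in LPS. Among them were the nuclear receptor genes Nr4a3 (65 in NT and 28 in LPS) and Nr4a2 (56 and 25), Klf2, a quiescence factor gene (52 and 12), and the antiproliferative gene Btg2 (48 and 11). For each gene these are the highest values in the window and need not come from the same place.

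Partners in dimers and the Egr family showed a wider range. Among 22 other AP-1 and basic leucine zipper genes, 17 were listed in NT and 9 in LPS. Among them were Cebpd (60 and 17), Crem (43 in NT and no LPS interval) and Nfe2l2 (42 and 24). Of 5 Egr family and partner genes, 4 and 3 had an interval. Egr3 (152 and 65), Egr4 (86 and 40) and Wt1 (58 and 39) all lay above Egr1 and Egr2 in both libraries, and Nab2, a gene for a corepressor of Egr proteins, had 28 in NT alone. Egr3 and Egr4 are known mainly from neurons and muscle spindles, and Wt1 from kidney and gonad.

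Genes of the signalling steps above AP-1 and Egr had NT intervals near the general share of 46%. LPS intervals were almost absent from them, against 21.2% of all protein-coding genes. Among 16 MAP kinase pathway genes, 9 were listed in NT and 1 in LPS, Map2k1 with 52 and 10. Mapk14, the p38 kinase gene, had 37 in NT alone, and Map3k7 and Map3k8, which encode kinases that act just below Toll-like receptors, had 34 each in NT alone. Of 6 genes of the serum response factor pathway, which drives Fos and Egr promoters through the CArG box, 3 were listed in NT and 0 in LPS. These were Elk4 (36), Mrtfa (26) and Srf itself (17). Weak and narrow NT intervals seldom had an LPS partner anywhere in the series. Whether the signalling genes differ from other genes with NT intervals of like value and width was not tested.

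**Figure D5:**
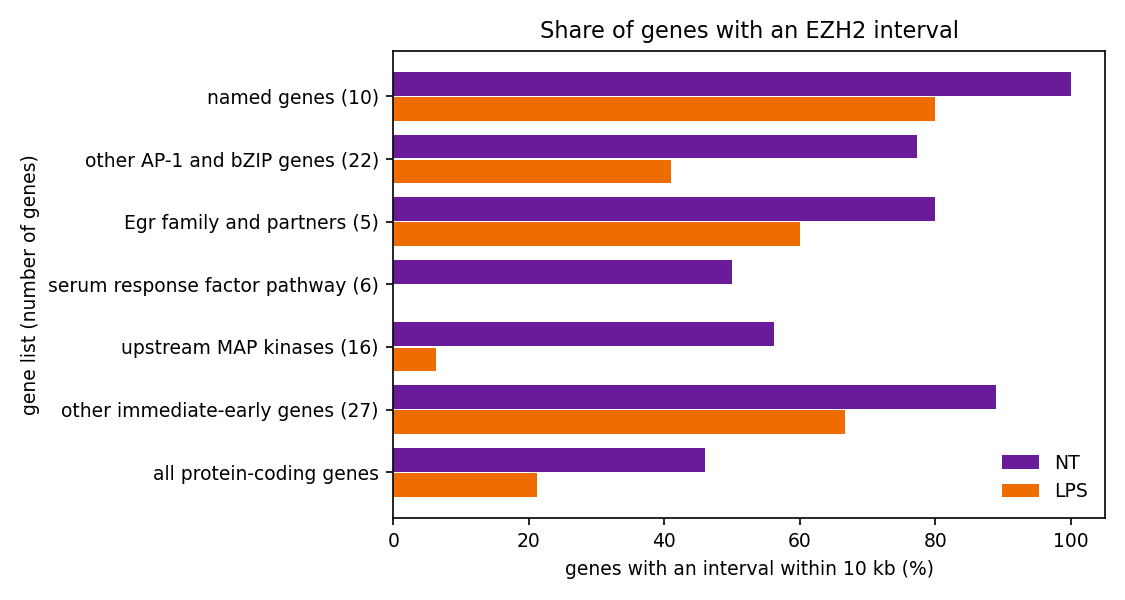
Share of genes with an NT or LPS interval within 10 kb, for the 10 named genes, 5 lists of companion genes (number of genes in brackets) and all protein-coding genes. The named genes are at 100% in NT and 80% in LPS, the upstream MAP kinases at 56.2% and 6.25%, and all protein-coding genes at 46% and 21.2%.

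The genes whose values were most like those of the 8 genes with intervals in both libraries were sought among 4511 genes with intervals in both. Likeness was the Euclidean distance over 4 log2 values, which were the highest summit value and the covered bases in each of the 2 libraries. The nearest were Dock3 (40 in NT and 14 in LPS, distance 0.206), Ankrd13b (45 and 15, 0.233), Cyth2 (45 and 14, 0.237), and the neighbours Aipl1 and Pimreg (39 and 16, 0.244), which share their intervals. The middle of the 8 genes was at 41.3 in NT and 14.0 in LPS.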

How the data were processed

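The file deposited by the authors held 5 tracks, which were summits and intervals of each EZH2 library and merged regions. The score of each summit was deposited by the authors as a whole number with no unit named. Start and end positions were deposited as BED coordinates and are printed 1-based on mm10. BWA, SICER and mm10 are named in the submitters' processing notes, with no version, and duplicate removal, input use, scaling and depth are not stated in them. The stimulated track, named TLR, was taken as the LPS sample.

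Overlaps of at least 1 bp, regions (the union of both lists), ratios, promoter features and motif matches were computed with Python 3.11.15, pandas 2.3.3 and numpy 2.4.6, and the interval code was tested on simulated data. Like regions have an NT value within 5 and like widths are within 1.5 times; these limits and the CpG classes were set after the data were seen. Genes came from RefSeq (GRCm38.p6), where all 10 genes and all 75 companion genes matched, and 8 of the 10 had promoter sequences. The 10 genes, the companion and marker lists and the rule for named genes were chosen with earlier results of these data known. The rule names the 10 genes, protein-coding genes under their intervals, up to 4 genes per list with the highest NT value and any with an LPS interval alone, and the 5 genes most alike; 1 gene that it names is not reported here. Alternatives were windows of 2.5, 5 and 20 kb, stricter lists, merging under 2 kb, and a stricter overlap. The last required at least as much of an interval inside the window as outside it.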

Additional observations from a re-analysis of the deposited data

How the results depend on the processing

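The 7 alternatives gave 384 recomputed values, of which 328 stayed close to those reported (counts within 1.5 times, other values equal to 2 decimals) and 56 moved. Values that vanished because no interval was left were not counted. Among these were the LPS values and ratios of Fos, Fosb, Fosl1, Jun and Atf3 when only the stronger intervals were kept. Some counted values could not move, such as LPS values when only the NT list was cut. Windows of 2.5, 5 and 20 kb, merging under 2 kb and the stricter overlap kept all 10 genes in NT, the same 8 in LPS and 0 in LPS alone. When only the stronger intervals were kept (at least their library's median value), 8 genes had an NT interval, 3 an LPS interval and 3 both (Junb, Jund and Egr2), and 5 had one in NT alone, where 26.9%, 12.8%, 12.1% and 14.8% of all genes did. Companion genes then numbered 37 in NT, 13 in LPS and 13 in both. The NT list was also reduced to the length of the LPS list, down to a value of 27, with only part of the intervals at 27 kept. Then 8 of the 10 genes had an NT interval, 8 an LPS interval and 7 both, where 26.1%, 21.2% and 16.6% of all genes did. Fosb and Egr1 had no NT interval left. An interval in NT alone was found at 1 gene (Fosl2) and in LPS alone at 1 (Fosb), where 9.54% and 4.66% of all genes had one. Of the companion genes 37 had an NT interval, 11 without one in LPS, and 5 had an LPS interval alone. The median ratio over shared regions at the 10 genes, 0.426, was 0.455 with the 20 kb window and 0.442 with the median limit. It was 0.399 both with the reduced NT list and with merging. The regions behind this median were not the same in these settings. With the median limit only Junb, Jund and Egr2 kept a ratio, and Fos and Jun had none. With the reduced NT list Fosb, the gene with the highest ratio, had none. Stricter lists hold fewer intervals by construction, and no other cause was tested. No paired analysis was possible because 1 library stood for each condition. At values near 7 in LPS and 11 in NT, the lowest listed, absence of an interval does not show absence of signal.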
